A study of Mus musculus with 6 samples.

Results

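DNA replication and nucleotide synthesis were followed through 43 genes in mouse pre-B leukaemia cells, of 19938 genes measured on the arrays. The genes were a named list, proposed with earlier results of these data known but not chosen by an expression threshold. Each was read by its probe set of highest mean among those annotated to a single gene. All 43 were found. They were grouped as 8 genes of E2F and cyclin E, 16 of origin licensing and the helicase, 14 of the polymerases, the clamp and S-phase chromatin, and 5 nucleotide enzymes. Uhrf1, Slbp, Chaf1a and Chaf1b, which act on new chromatin and histone RNA, were placed with the polymerases.

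One set of cells carried PMIP-CRE-ERT2, a vector for a Cre recombinase that 4-hydroxytamoxifen activates (Cre-ERT2, 3 arrays), and the control cells carried PMIP-ERT2, the same fusion partner without Cre (ERT2, 3 arrays). Both were C57Bl/6 pre-B cells transformed with BCR-ABL1 and carrying a floxed Bcor allele on the single X chromosome (Bcor fl/Y). Both had been selected with puromycin and received 4OH-Tamoxifen at 0.5 micromolar for 2 days before RNA was taken. The series title asks about the role of Bcor, a corepressor that binds BCL6 and belongs to a variant polycomb complex. No cells with active Cre and an intact Bcor gene were analysed here, so the loss of Bcor and the activity of Cre cannot be told apart. Whether the arrays came from separate cultures, mice or clones is not given in the labels. The p-values therefore rest on the differences among these 6 arrays, which may be technical only.

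The targeted gene was lower in every Cre-ERT2 array: Bcor had log2 values of 9.08, 9.22 and 9.18 with Cre-ERT2 and 10.07, 10.11 and 10.17 with ERT2. This left 51.5% of the control level (log2 fold change -0.96, limma adjusted p = 2.11e-05). Since the floxed exons are not named in the labels, the value does not measure the share of recombined cells. The median log2 value per array lay between 8.61 and 8.68 with Cre-ERT2 and between 8.61 and 8.66 with ERT2. The 9 measured B-lineage markers of 10 listed had group means of 11.3 to 14.3 with Cre-ERT2 and 11.2 to 14.2 with ERT2, and 1 of them rose. The 4 measured T cell markers of 6 listed had means of 7.26 to 8.51 with Cre-ERT2 and 7.40 to 8.54 with ERT2. The 6 myeloid markers had means of 7.46 to 10.2 with Cre-ERT2 and 7.40 to 9.76 with ERT2, and 1 of them rose. The only erythroid marker measured of 4 was at 8.21 with Cre-ERT2 and 8.19 with ERT2. The 4 stromal markers had means of 7.20 to 9.57 with Cre-ERT2 and 7.32 to 9.66 with ERT2. The detection limit of the arrays is unknown here, so no marker was called absent.

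A cell copies its genome once per cycle. E2F factors, released from the retinoblastoma protein family as cyclin-dependent kinases become active, cyclin E with CDK2 among them, drive the genes for this work. Before S phase the origin recognition complex, CDC6 and CDT1 load the ring of MCM2 to MCM7 onto DNA, and CDC45 and GINS later join it to form the CMG helicase. Polymerases alpha, delta and epsilon, the sliding clamp PCNA and ligase 1 copy the strands, while ribonucleotide reductase and the thymidylate enzymes supply the building blocks. Pre-B leukaemia cells driven by BCR-ABL1 proliferate in culture and so depend on this machinery.

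All 43 genes had lower mean values with Cre-ERT2 than with ERT2, by small amounts. The median log2 fold change (Cre-ERT2 minus ERT2) was -0.12, a level 7.87% lower, and the range was -0.24 (Ccne1) to -0.02 (Cdc25a). Over all 19938 genes 68.2% were below 0, and the median was -0.04. By limma with Benjamini-Hochberg adjustment over all genes, 7 of the 43 fell at an adjusted p under 0.05 (16.3%) and 0 rose, where 2.98% of all genes fell and 4.05% rose. At an unadjusted p under 0.05, 30 were lower and 0 higher, against 15% of all genes lower. The 3 Cre-ERT2 values lay under all 3 ERT2 values for 31 of the 43 (72.1%) and above them for 0, where 20.3% and 9.56% of all genes did so. Beyond the 7 that fell, 7 more members had an adjusted p from 0.05 to 0.1, all lower, where 2.99% of all genes did. The members share the same 6 arrays, so these counts are not 43 separate observations. In bulk RNA, fewer cells in S phase and less of each RNA per cell cannot be told apart.

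The count of falls rested on few arrays. It was 0 without Cre-ERT2 replicate 2 and 0 without ERT2 replicate 1 by the same limma fit, with 21 and 19 members lower at an unadjusted p under 0.05. Of all genes 1.07% and 1.29% fell in these fits. The members' count was 1 without Cre-ERT2 replicate 1, 3 without ERT2 replicate 2, 3 without ERT2 replicate 3 and 8 without Cre-ERT2 replicate 3, where 1.31%, 1.83%, 1.63% and 3.15% of all genes fell. The median log2 fold change of the members stayed between -0.13 and -0.11 with any array left out. After cyclic loess between arrays the members' median was -0.10 and that of all genes -0.002. In that scaling 42 of the 43 were below 0, where 51.3% of all genes were, and 6 fell, where 2.13% of all genes did. Of all called genes 57.6% were higher with Cre-ERT2, and 71.2% after cyclic loess.

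**Figure D1:**
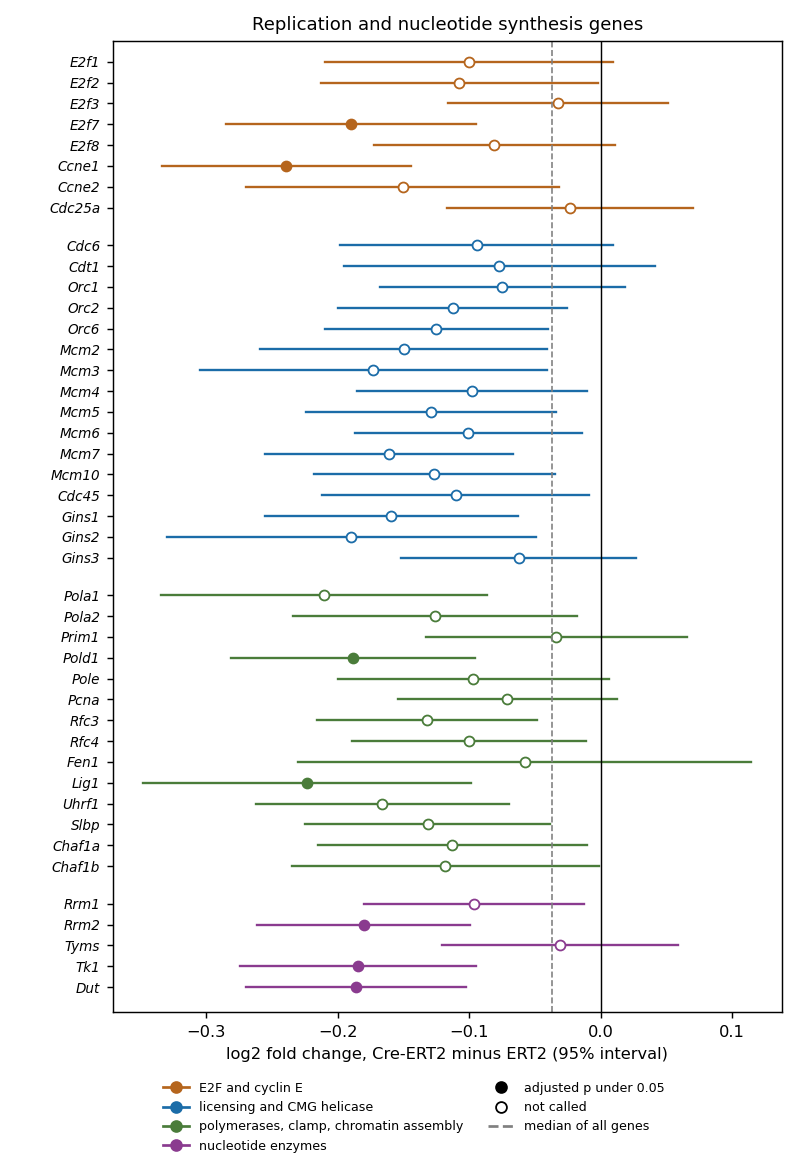
Log2 fold change (x axis, Cre-ERT2 minus ERT2, 3 arrays each) of the 43 genes (y axis), with moderated 95% intervals from limma. Filled points are the 7 genes with an adjusted p under 0.05, the dashed line is the median of all genes at -0.04, and every point lies left of 0.

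Array by array, the members' median deviation from each gene's mean over the 6 arrays was -0.06, -0.08 and -0.06 in Cre-ERT2 replicates 1 to 3. In ERT2 replicates 1 to 3 it was 0.07, 0.05 and 0.09. The groups were therefore apart by more than the spread within either. For all genes the same medians were -0.02, -0.03 and 0.005 with Cre-ERT2 and 0.01, 0.004 and 0.03 with ERT2, where the groups overlapped. The nucleotide enzymes had the lowest group median, at a log2 fold change of -0.18, and E2F and cyclin E the highest, at -0.10.

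**Figure D2:**
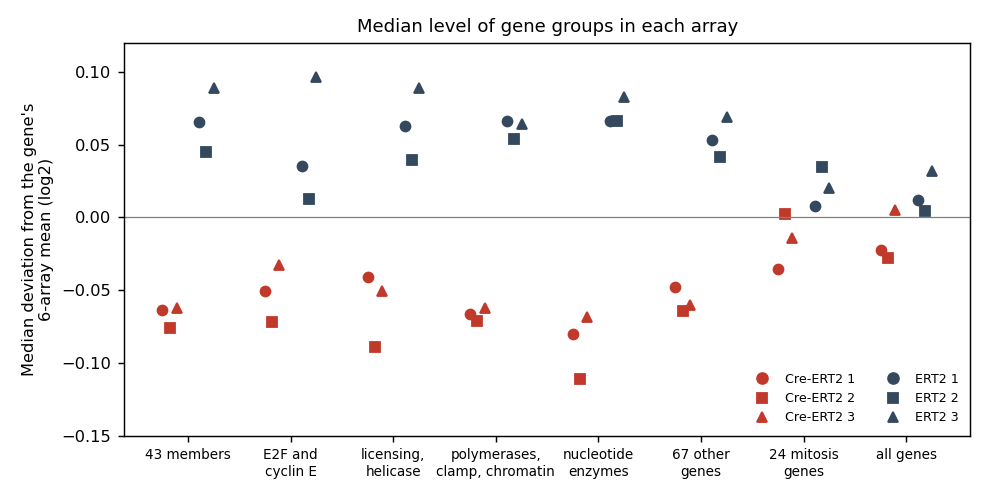
Median deviation of each gene group from its genes' 6-array means (y axis, log2) in each array. Cre-ERT2 arrays are red and ERT2 arrays are dark; the members' 3 Cre-ERT2 medians lie between -0.08 and -0.06 and their ERT2 medians between 0.05 and 0.09.

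What the promoters of these genes share was read from RefSeq sequence of build GRCm38.p6, as 250 bases before and 50 after the first listed transcript start of each gene. Of the 43 genes 38 had a sequence. Both strands were searched for 4 E2F-type words (TTTCCCGC, TTTCGCGC, TTTGCCGC and TTTGGCGC) and for 2 words of the cell cycle homology region, an element of mitotic promoters (TTTGAA and TTCGAA), with overlapping matches counted separately. An E2F-type word stood in 15 of the 38 windows (39.5%), against 3.08% of the windows of all genes tested. The other word pair stood in 8 of 38 (21.1%), against 16.8% of all windows. Of 53 promoters of the other pathway genes listed further on, 12 held an E2F-type word (22.6%) and 7 a cell cycle homology word (13.2%). For comparison, 20 promoters of mitosis genes held an E2F-type word in 1 window (5%) and a cell cycle homology word in 16 (80%).

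A match is only a run of letters, and it did not sort the members by their change. The median log2 fold change was -0.11 in the 15 with an E2F-type word and -0.12 in the 23 without one. Among the 7 genes that fell, the windows of Pold1 and E2f7 held a word and those of Ccne1, Rrm2, Dut, Tk1 and Lig1 held none of these 4. Counting every listed start, 17 of the 38 genes had a word, Lig1 among them. Pold1 and E2f7 are printed for that reason. Mcm5 and Mcm6 are added, chosen after the matches were seen, because their words overlap on opposite strands. Each line is in the direction of transcription, with matches in capitals. The windows are chr7:44548766-44549065 (minus strand) for Pold1, chr10:110745189-110745488 (plus) for E2f7, chr8:75109259-75109558 (plus) for Mcm5 and chr1:128359656-128359955 (minus) for Mcm6.
Pold1: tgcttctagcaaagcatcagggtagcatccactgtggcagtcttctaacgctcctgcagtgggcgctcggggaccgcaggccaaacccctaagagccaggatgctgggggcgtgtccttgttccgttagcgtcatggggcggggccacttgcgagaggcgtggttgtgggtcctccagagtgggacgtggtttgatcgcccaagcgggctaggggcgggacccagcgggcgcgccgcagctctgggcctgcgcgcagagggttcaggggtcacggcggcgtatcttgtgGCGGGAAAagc
E2f7: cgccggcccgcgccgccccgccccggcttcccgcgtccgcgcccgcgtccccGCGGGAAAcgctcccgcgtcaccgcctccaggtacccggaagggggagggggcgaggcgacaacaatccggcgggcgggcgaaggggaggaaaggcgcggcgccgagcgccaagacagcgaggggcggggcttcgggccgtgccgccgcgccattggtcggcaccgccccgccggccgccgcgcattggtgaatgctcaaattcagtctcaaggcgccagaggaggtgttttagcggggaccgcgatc
Mcm5: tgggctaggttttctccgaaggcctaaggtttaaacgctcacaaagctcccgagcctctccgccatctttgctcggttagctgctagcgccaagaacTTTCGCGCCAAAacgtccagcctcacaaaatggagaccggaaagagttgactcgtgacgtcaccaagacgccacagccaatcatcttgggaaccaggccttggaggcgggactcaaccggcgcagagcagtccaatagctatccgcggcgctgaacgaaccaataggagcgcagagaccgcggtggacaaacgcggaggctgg
Mcm6: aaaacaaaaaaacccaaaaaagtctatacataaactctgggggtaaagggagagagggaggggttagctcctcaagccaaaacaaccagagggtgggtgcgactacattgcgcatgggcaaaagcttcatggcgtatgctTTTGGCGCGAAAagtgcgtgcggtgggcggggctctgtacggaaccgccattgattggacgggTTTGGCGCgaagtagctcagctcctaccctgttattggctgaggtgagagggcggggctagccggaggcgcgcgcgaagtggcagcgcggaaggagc

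Counted from the transcript start at 0, the Pold1 word was centred at 43, on the minus strand of the gene, and the E2f7 word at -194. Mcm5 had a pair at -149 and -145, and Mcm6 a pair at -106 and -102 with another word at -43. In all, 21 words were found in the members' windows, 12 of them centred within 50 bases of the start, and 5 genes had more than 1.

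Of the 8 E2F and cyclin E genes, 2 fell and 0 rose, where 2.98% of all genes fell and 4.05% rose. Ccne1 encodes cyclin E1, which activates CDK2 at the entry to S phase. Its log2 values were 11.73, 11.63 and 11.69 in the Cre-ERT2 arrays, against 11.95, 11.90 and 11.93 in the ERT2 arrays. The highest Cre-ERT2 value lay well under the lowest ERT2 value, and the level was 15.3% lower (log2 fold change -0.24, SE 0.0415, limma adjusted p = 0.0103). Of 16 alternative settings Ccne1 passed in 14, the most of the 7 genes that fell. Its paralogue Ccne2 was at -0.15 (95% interval -0.27 to -0.03, adjusted p = 0.132), with overlapping groups.

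E2f7, an atypical E2F that represses E2F targets, was the other gene of the group that fell. It had 11.23, 11.19 and 11.30 with Cre-ERT2 and 11.44, 11.43 and 11.42 with ERT2. The ERT2 arrays were close together (SD 0.0120) and all above the Cre-ERT2 arrays (log2 fold change -0.19, SE 0.0417, adjusted p = 0.0302). Its call ended when any array but Cre-ERT2 replicate 3 was left out (adjusted p up to 0.13). E2f8, its closest relative, was at -0.08 (adjusted p = 0.269). The activators E2f1, E2f2 and E2f3 were at -0.10, -0.11 and -0.03, with adjusted p of 0.253, 0.21 and 0.625. The second E2f3 probe set was at -0.08 (adjusted p = 0.395 over all single-gene probe sets). Cdc25a, the phosphatase that removes inhibitory phosphate from CDK2, was nearest to 0, at -0.02 (95% interval -0.12 to 0.07). After cyclic loess it was at 0.0014.

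Of the 16 licensing and helicase genes 0 were called by limma at an adjusted p under 0.05, although 12 were lower at an unadjusted p under 0.05 and 0 higher. Of all genes 2.98% were called lower, and 15% were lower at the unadjusted threshold. In 13 of the 16 the 3 Cre-ERT2 values all lay under the ERT2 values, as in 20.3% of all genes. The 6 subunits of the MCM ring lay between -0.17 (Mcm3) and -0.10 (Mcm4), a median of -0.14, and each had an unadjusted p under 0.05. Mcm7 came closest to the threshold. Its values were 13.08, 13.12 and 13.19 with Cre-ERT2 and 13.28, 13.29 and 13.31 with ERT2. The groups did not overlap (log2 fold change -0.16, 95% interval -0.26 to -0.07, adjusted p = 0.0544). Mcm2 was at -0.15, Mcm5 at -0.13 and Mcm6 at -0.10, with adjusted p from 0.107 to 0.158.

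Among the partners of the ring, the GINS subunit Gins1 had 11.04, 10.95 and 11.01 with Cre-ERT2, against 11.18, 11.11 and 11.20 with ERT2 (log2 fold change -0.16, adjusted p = 0.0615). Its groups did not overlap. Gins2 had the lowest value of the group, at -0.19, but its ERT2 arrays were spread (SD 0.110) and the adjusted p was 0.113. Gins3 was at -0.06 and Cdc45 at -0.11. Mcm10, which helps to activate the loaded helicase, was at -0.13 (adjusted p = 0.105).

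Of the loading factors, Cdc6 was at -0.09 and Cdt1 at -0.08 (adjusted p of 0.257 and 0.406), and the groups overlapped for both. Of the origin recognition subunits, Orc1 was at -0.07, Orc2 at -0.11 and Orc6 at -0.13. Orc6 had 12.03, 12.05 and 12.08 with Cre-ERT2 and 12.17, 12.16 and 12.21 with ERT2. These groups did not overlap, and the adjusted p was 0.0882.

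Of the 14 genes of the polymerases, the clamp and S-phase chromatin, 2 fell and 0 rose. Of all genes 2.98% fell and 4.05% rose. Lig1 encodes the ligase that seals Okazaki fragments. Its values were 11.41, 11.45 and 11.59 with Cre-ERT2 and 11.67, 11.70 and 11.77 with ERT2. Cre-ERT2 replicate 3 stood nearest to the ERT2 arrays, and the level was 14.3% lower (log2 fold change -0.22, SE 0.0547, limma adjusted p = 0.0465). The call ended when any array but Cre-ERT2 replicate 3 was left out (adjusted p up to 0.163) and after cyclic loess (adjusted p = 0.0548).

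Pold1, the catalytic subunit of polymerase delta, had 11.60, 11.57 and 11.56 with Cre-ERT2 and 11.75, 11.73 and 11.82 with ERT2. The groups were apart (log2 fold change -0.19, SE 0.0407, adjusted p = 0.0282), but the call ended when any array but ERT2 replicate 2 was left out (adjusted p up to 0.112). Pola1, the catalytic subunit of polymerase alpha, had 11.62, 11.56 and 11.65 with Cre-ERT2, against 11.85, 11.90 and 11.72 with ERT2. ERT2 replicate 3 lay close to the Cre-ERT2 arrays, and the log2 fold change of -0.21 had an adjusted p of 0.0556. Pola2, its accessory subunit, was at -0.13, Pole, the leading-strand polymerase, at -0.10, and Prim1, the primase, at -0.03 (95% interval -0.13 to 0.07).

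None of Pcna, Rfc3 and Rfc4, of the clamp and its loader, passed the test. Pcna was at -0.07 (adjusted p = 0.284) and its second probe set also at -0.07. Rfc3, a clamp loader subunit, had 12.20, 12.23 and 12.22 with Cre-ERT2 and 12.35, 12.32 and 12.37 with ERT2, with no overlap (log2 fold change -0.13, adjusted p = 0.0721). Rfc4 was at -0.10. Fen1, the flap nuclease that trims Okazaki fragments, was the least precisely measured member. It had 11.00, 10.83 and 10.74 with Cre-ERT2 and 10.95, 10.80 and 11.00 with ERT2, and its 95% interval was -0.23 to 0.11.

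Of the S-phase chromatin genes, Uhrf1, which brings DNA methyltransferase 1 to newly copied DNA, came nearest to a call. It had 11.77, 11.74 and 11.85 with Cre-ERT2 and 11.93, 11.95 and 11.97 with ERT2, with no overlap (log2 fold change -0.17, adjusted p = 0.0522). Slbp, which binds the stem-loop of histone RNA, had 12.37, 12.34 and 12.34 with Cre-ERT2, against 12.48, 12.54 and 12.43 with ERT2 (log2 fold change -0.13, adjusted p = 0.0989). Its second probe set was at -0.10. Chaf1a and Chaf1b, subunits of the CAF-1 histone chaperone, were at -0.11 and -0.12 (adjusted p of 0.177 and 0.212).

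Of the 5 nucleotide enzymes 3 fell and 0 rose, where 2.98% of all genes fell and 4.05% rose. The other 2, Rrm1 and Tyms, did not pass. Rrm2 encodes the small subunit of ribonucleotide reductase, whose level follows S phase. It had 13.18, 13.15 and 13.19 with Cre-ERT2 and 13.35, 13.36 and 13.35 with ERT2. Both groups were tight, and the level was 11.8% lower (log2 fold change -0.18, SE 0.0355, limma adjusted p = 0.0185). Rrm1, the large subunit, was at -0.10 (95% interval -0.18 to -0.01, adjusted p = 0.164). The difference between the subunits was not tested.

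Dut removes dUTP and yields the substrate of thymidylate synthase. Its values were 11.75, 11.72 and 11.75 with Cre-ERT2, against 11.93, 11.90 and 11.95 with ERT2. No Cre-ERT2 value came near the ERT2 range (log2 fold change -0.19, SE 0.0367, adjusted p = 0.0188). Tk1, which salvages thymidine, had 11.18, 11.15 and 11.23 with Cre-ERT2 and 11.35, 11.39 and 11.38 with ERT2 (log2 fold change -0.18, SE 0.0393, adjusted p = 0.0263). The second Tk1 probe set was at -0.23 (adjusted p = 0.0164 over all single-gene probe sets). Tyms, which makes thymidylate itself, was at -0.03 (95% interval -0.12 to 0.06, adjusted p = 0.669), with overlapping groups. The calls of Rrm2 and Dut each ended in 4 of the 6 fits that left out 1 array, both with an adjusted p up to 0.0948. That of Tk1 ended in 5 of 6 (adjusted p up to 0.121).

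**Figure D3:**
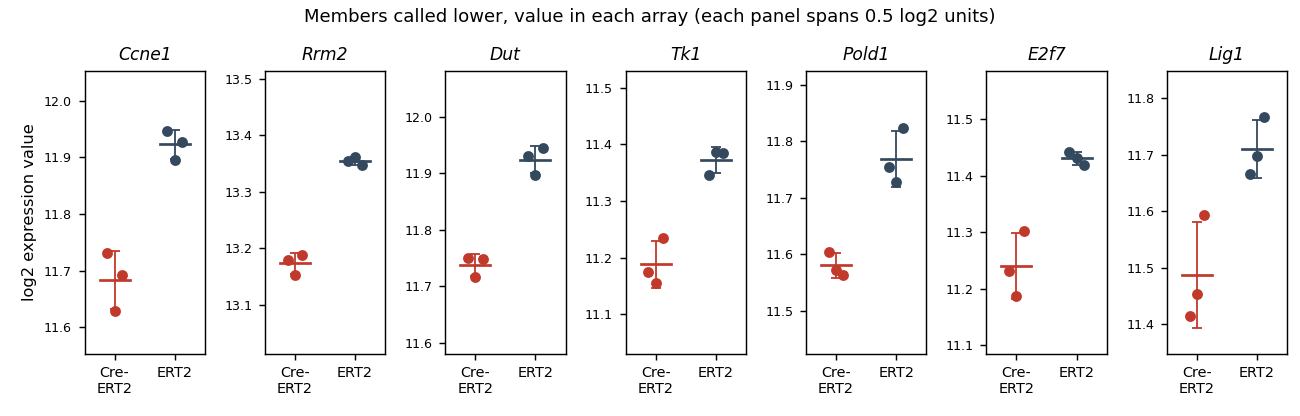
Log2 expression values (y axis, each panel spanning 0.5 units) in the 3 Cre-ERT2 arrays (red) and the 3 ERT2 arrays (dark) for the 7 members that fell, with group means as bars and SD as error bars. The groups are apart in every panel; for Lig1 the highest Cre-ERT2 array (11.59) lies near the lowest ERT2 array (11.67).

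A further list of 69 genes of the same pathway, of which 67 were measured, lay mostly in the same direction. This list was also fixed with earlier results of these data known. By limma 12 fell (17.9%), 1 rose and 54 did not pass, where 2.98% of all genes fell and 4.05% rose. Below 0 were 62 (92.5%), against 68.2% of all genes. The median log2 fold change was -0.11. The count of falls was 3 without Cre-ERT2 replicate 1 or 2 or ERT2 replicate 1, 4 without ERT2 replicate 2, 5 without ERT2 replicate 3 and 7 without Cre-ERT2 replicate 3. Among 10 E2F regulators 2 fell. They were Rbl1, which encodes the pocket protein p107 (-0.15, adjusted p = 0.0404), and E2f4, its repressive partner (-0.18, adjusted p = 0.0321). Dropping 1 array at a time removed the Rbl1 call in all 6 limma fits (highest adjusted p 0.163). The E2f4 call was removed in 5 of the 6 (highest adjusted p 0.124). Of 14 further origin and helicase genes 0 were called by limma, with 5 lower and 0 higher at an unadjusted p under 0.05. At that threshold 15% of all genes were lower.

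Of 22 further polymerase and fork genes 4 fell and 0 rose, where 2.98% of all genes fell and 4.05% rose. Chtf18, of an alternative clamp loader, was at -0.19 (adjusted p = 0.021) and Pole4, a small subunit of polymerase epsilon, at -0.18 (adjusted p = 0.0199). Asf1b, a histone chaperone, was at -0.16 (adjusted p = 0.0459), and Prim2, the large primase subunit, at -0.14 (adjusted p = 0.0443). Pole2, the second subunit of polymerase epsilon, lay the other way, at 0.10 (adjusted p = 0.16). All 4 calls were fragile: they were lost in 4 or 6 of the 6 fits without 1 array, with an adjusted p up to 0.156. In those 6 fits the log2 fold changes of the 4 genes stayed between -0.22 and -0.14.

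The one gene of the pathway that rose was Samhd1, which breaks down deoxynucleoside triphosphates and is also induced by interferon. It had 11.73, 11.69 and 11.64 with Cre-ERT2, against 11.12, 11.05 and 11.09 with ERT2. The level was 1.52-fold higher, far beyond the spread within either group (log2 fold change 0.60, SE 0.0414, limma adjusted p = 7.81e-05). The call held with each array left out in turn (adjusted p up to 0.00109).

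Several enzymes that supply deoxynucleotides fell. Among the 9 measured genes of deoxynucleotide and folate supply besides the members, 4 fell and 1, Samhd1, rose. Of all genes 2.98% fell and 4.05% rose. Dck, which salvages deoxycytidine, had 12.13, 12.10 and 12.07 with Cre-ERT2 and 12.33, 12.31 and 12.39 with ERT2 (log2 fold change -0.24, SE 0.0410, adjusted p = 0.00936). This call held with each array left out (adjusted p up to 0.0447). Rrm2b, the small reductase subunit induced by p53, was at -0.22 (adjusted p = 0.0239). Shmt1, of the folate cycle that feeds thymidylate synthesis, was at -0.18 (adjusted p = 0.0472), and Dtymk, which phosphorylates thymidylate, at -0.16 (adjusted p = 0.0487). The calls of Shmt1 and Dtymk ended with any array left out and that of Rrm2b in 5 of 6 such fits, with an adjusted p up to 0.189.

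Of 12 measured genes of base synthesis 2 fell, against 2.98% of all genes. The 2 were in the pyrimidine branch. All 12 were below 0, against 68.2% of all genes. Adss, of purine synthesis, was at -0.13 (adjusted p = 0.0727). The difference between the branches was not tested. Dhodh, the mitochondrial enzyme that makes orotate, had 9.85, 9.85 and 9.83 with Cre-ERT2 and 10.04, 10.06 and 10.07 with ERT2. The SD was 0.00977 with Cre-ERT2 and 0.0120 with ERT2, far under the difference, and the log2 fold change was -0.21 (SE 0.0352, adjusted p = 0.00818, up to 0.043 with an array left out). Ctps, which converts UTP to CTP, had 11.29, 11.22 and 11.25 with Cre-ERT2 and 11.53, 11.42 and 11.56 with ERT2 (log2 fold change -0.25, SE 0.0463, adjusted p = 0.014). The call of Ctps ended without Cre-ERT2 replicate 2 or ERT2 replicate 1 (adjusted p up to 0.0699). Cad and Umps, which carry out the steps before and after Dhodh, were at -0.16 and -0.14 (adjusted p of 0.0832 and 0.0931).

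**Figure D4:**
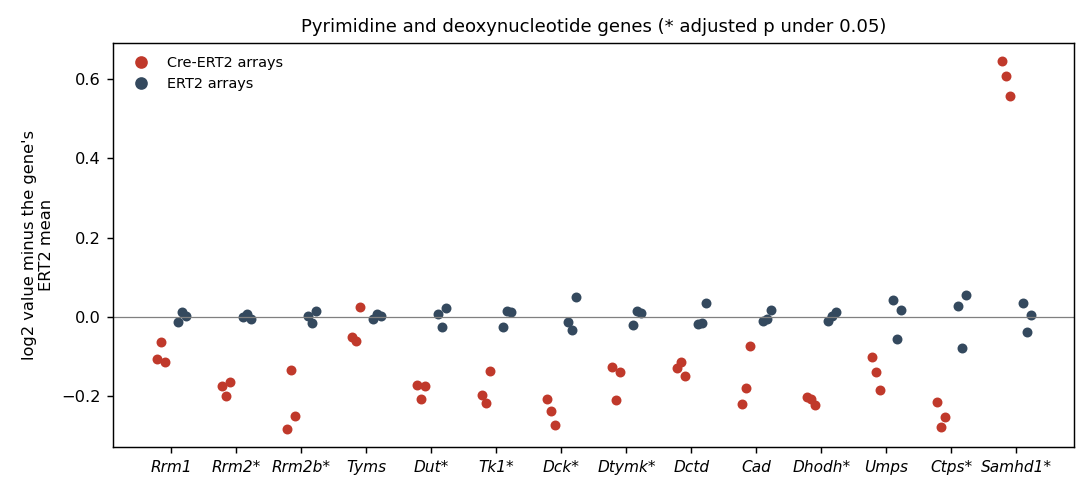
Log2 value of each array minus the gene's ERT2 mean (y axis) for 14 genes of pyrimidine and deoxynucleotide metabolism (x axis), Cre-ERT2 arrays in red and ERT2 arrays dark. An asterisk marks an adjusted p under 0.05. The log2 fold change between group means is 0.60 for Samhd1 and between -0.25 and -0.16 for the other marked genes, and single arrays spread around these values.

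Of 24 measured mitosis genes, which act after S phase, 1 rose and 1 fell by limma. These counts are near the shares of all genes, of which 4.05% rose and 2.98% fell. The median was -0.03, where that of all genes was -0.04. By other counts the share that was lower exceeded that of all genes: 19 (79.2%) were below 0, against 68.2% of all genes, and 7 were lower at an unadjusted p under 0.05, as were 15% of all genes. The Cre-ERT2 values lay under all ERT2 values for 11 (45.8%), against 20.3% of all genes. The gene that rose was Nek2 (0.23) and the gene that fell was Ndc80 (-0.29), both named after their values were seen. The difference between the replication and mitosis lists was not tested.

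**Figure D5:**
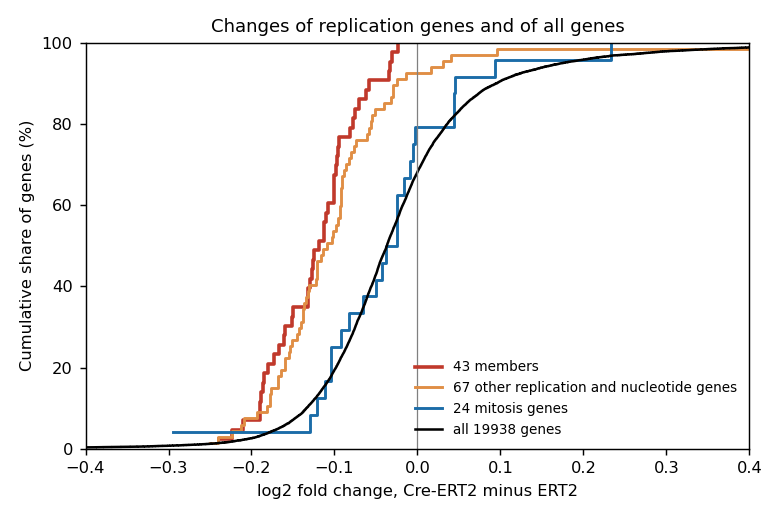
Cumulative share of genes (y axis, %) by log2 fold change (x axis, Cre-ERT2 minus ERT2, shown from -0.4 to 0.4) for the 43 members, 67 other genes of the pathway, 24 mitosis genes and all 19938 genes. The curves of the members and of the other pathway genes lie left of the curve of all genes, with medians of -0.12 and -0.11, while the mitosis genes have a median of -0.03, with 79.2% of them below 0 against 68.2% of all genes.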

How the data were processed

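Total RNA of 6 cell samples was labelled with biotin and hybridised to Affymetrix arrays, per the labels' protocols. The authors deposited log2 values per probe set. The submitters' processing notes name RMA and Partek 6.5, with no role or order, and the background setting is not given in the sources used here. Of 35556 probe sets, 21789 had 1 gene symbol in the platform annotation, 1621 had several and 12146 were not listed; genes covered only by the last kinds were not used. Identifiers of 21698 were found in the gene table of build GRCm38.p6. Each of 19938 genes was read by its probe set of highest mean. Close paralogues may share probes.

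The limma package, version 3.58.1 under R 4.3.3, gave Cre-ERT2 minus ERT2 (lmFit, eBayes without trend), with Benjamini-Hochberg adjustment over all 19938 genes and a threshold of 0.05; errors are moderated SE and 95% intervals. The number of arrays limits the precision (median SE 0.0477). Lists are given by counts and medians beside those of all genes, with no set test. The members, lists, tests and alternatives were chosen with earlier results of these data known. The rule for naming took Bcor, all 43 members (every array's value for those with an adjusted p under 0.1 or the smallest p of their group) and each called gene of the further pathway list. Pole2, Cad, Umps, Adss, Nek2 and Ndc80 were named, and the array values of Fen1 printed, after their values were seen.

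No 2 arrays held the same values. The pipeline was tested on simulated data with 50 changed genes of each size. It recovered 0% at a log2 change of 0.15, 46% at 0.25, 88% at 0.5 and 100% at 1. In the data 1402 genes were called, and Rbl1 at -0.15 and Prim2 at -0.14 passed, so these shares do not carry over directly. A member that was not called may still differ. Other software was the data.table package (version 1.17.8), Python 3.11.15 with pandas 2.3.3, and matplotlib 3.10.9.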

Additional observations from a re-analysis of the deposited data

How the results depend on the processing

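The members' median stayed below 0 in all 16 alternatives, between -0.13 and -0.10, and 0 members were called higher in any of them. It moved by more than the spread between arrays only after cyclic loess (-0.10). The count of members that fell was 8 after quantile normalization, 9 after median centring and 7 when the probe sets of a gene were averaged. It was 20 with an intensity trend, 24 with array weights, 13 and 17 without the dimmest 30% and 50% of genes, 14 at an adjusted p of 0.1 and 2 with the replicate block (Ccne1 and Lig1). Among all genes the settings from the trend to the block called 4.22%, 10.2%, 5.57%, 8.05%, 5.97% and 1.3% lower. Quantile normalization, median centring and averaged probe sets called 2.64%, 3.02% and 2.94% of all genes lower. Leaving out the dimmest 50% was chosen after seeing the data. The cause of these moves was not tested, except that the threshold of 0.1 admits more genes by construction. Equal replicate numbers did not pair the arrays: over genes, deviations from the group means correlated at 0.05, -0.09 and -0.26 for numbers 1 to 3, and no Cre-ERT2 array correlated best with its own number. With the block the members' median log2 fold change was -0.12, the same as without it, which the balanced design fixes in advance. A call lost under the block therefore does not show a smaller change.

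Of the other 67 pathway genes, the count that fell was 3 with the replicate block, 26 with the trend, 28 with array weights, 7 after quantile normalization, 7 after cyclic loess, 24 without the dimmest 50% and 22 at an adjusted p of 0.1. Of all genes 1.3%, 4.22%, 10.2%, 2.64%, 2.13%, 8.05% and 5.97% fell in these settings. With the trend 2 of the other pathway genes rose. Over all genes 805 were called with the block (259 lower), 3339 with array weights (2024 lower, 1315 higher) and 2271 at an adjusted p of 0.1 (1190 lower). With 1 array left out, the calls ran from 743 to 1341 over all genes (214 to 628 lower, 513 to 713 higher), from 0 to 8 of the members and from 3 to 7 of the other pathway genes. The count of members whose groups did not overlap ran from 31 to 38 in these fits, where 23.5% to 34.4% of all genes did so, and was 25 after cyclic loess, where 12.2% did. Among the members, Bcor and the called pathway genes, direction turned for 2 members near 0: Cdc25a was at 0.0014 after cyclic loess and ran from -0.041 to 0.0085 with 1 array left out (above 0 without Cre-ERT2 replicate 2), and Fen1 ran from -0.13 to 0.00042 (above 0 without Cre-ERT2 replicate 3).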
